A study of Mus musculus with 5 samples.

Results

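The genes described here are 48 transcripts that were close to silent in wild-type mature CD8 single-positive (SP) thymocytes and present in every library from mice with 1 Runx3 allele named WRPW. They were chosen from CPM, the count of a gene scaled to a common library total: a mean under 1 CPM in the Runx3 +/+ libraries and at least 2 CPM in each Runx3 +/WRPW library. Of 35976 gene rows, 24178 had a mean under 1 CPM in Runx3 +/+, and 73 of those reached the higher level (0.302%). Leaving out 25 rows by name (19 predicted models with Gm numbers, 2 Riken clones, and 4 channel or chemokine receptor genes) gave the 48. The opposite pattern, with at least 2 CPM in each Runx3 +/+ library and a mean under 1 CPM in Runx3 +/WRPW, was met by 33 rows, with the same kinds of name left out. Since the levels in these same libraries chose the genes, the differences between genotypes are given as a description, without a test.

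Bulk RNA-seq was made from mouse thymus, from mature CD8 SP thymocytes purified by flow cytometry, with 3 libraries of the genotype Runx3 +/WRPW (labelled as heterozygotes) and 2 of Runx3 +/+ (labelled as wild type). The labels name no treatment or age. They also do not tell whether replicate libraries came from different mice, so the p-values below cover only the scatter among libraries, part or all of which may be technical.

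Runx3 is a Runt-domain transcription factor that binds DNA with Cbfb and, in the CD8 lineage, both represses and activates genes. Groucho/TLE corepressors are recruited by a VWRPY peptide at the carboxyl end of Runx proteins, and by a WRPW peptide in Hes-family repressors. Many genes of other tissues are kept silent in T cells, and a transcript that appears from near zero is read from few counts on the low side, so each value below is given with its library.

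Total counts were 43758550, 15715242 and 21857093 in Runx3 +/WRPW libraries 1, 2 and 3, and 21635675 and 25526389 in Runx3 +/+ libraries 1 and 2. Runx3 +/WRPW library 2 stood apart: it had a count at 27414 genes, against 17237 to 18967 in each of the other 4 libraries. Among the 24178 near-silent rows, 2188 (9.05%) reached 2 CPM in library 2, against 123 (0.509%) in library 1 and 98 (0.405%) in library 3. The demand for 2 CPM in every library therefore rests on libraries 1 and 3. Without library 2 the same levels are met by 51 genes. These include all 48 by rule, since leaving out a Runx3 +/WRPW library can only add genes. Summed over the 48 genes, the level was 267, 370 and 235 CPM in Runx3 +/WRPW libraries 1, 2 and 3, against 29.1 and 26.2 CPM in the Runx3 +/+ libraries. In Runx3 +/+ the sums rest on 629 and 669 counts, and a gene without a count there allows a level of up to 0.139 and 0.118 CPM (3 counts), for counting error only.

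**Figure D1:**
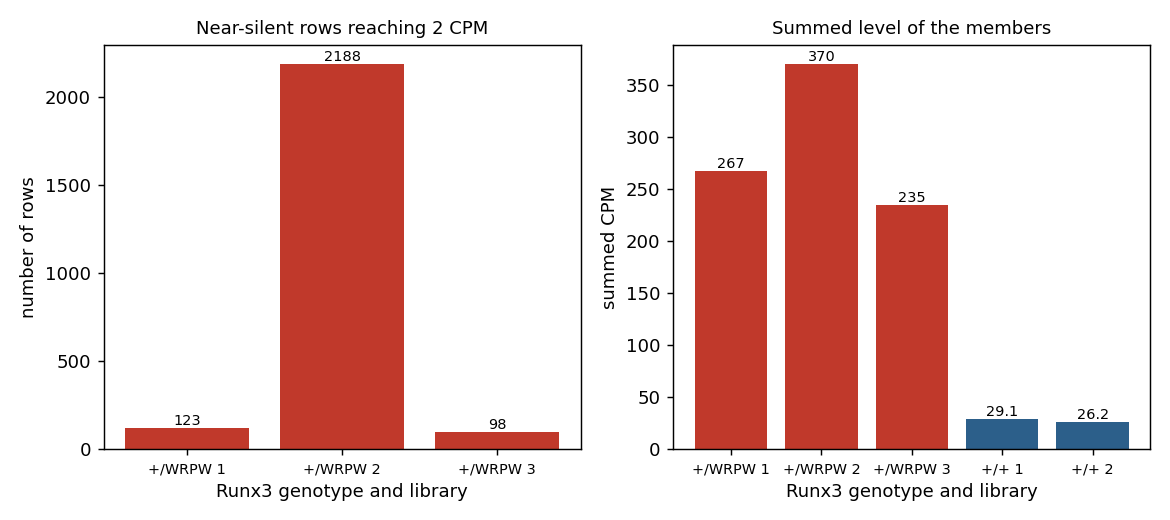
Left, number of the 24178 rows near silent in Runx3 +/+ that reached 2 CPM in each Runx3 +/WRPW library; right, summed CPM of the 48 genes in each library. Library 2 had 2188 such rows against 123 and 98, while the summed level of the 48 genes was 370 CPM there against 267 and 235 CPM in libraries 1 and 3, and 29.1 and 26.2 CPM in Runx3 +/+.

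The sorted identity was checked from 14 marker lists. All 9 markers of mature CD8 SP thymocytes with a row were present, with summed levels of 8612 to 9452 CPM in Runx3 +/WRPW and 9060 and 9263 CPM in Runx3 +/+. Markers of neurons summed to 7.82, 38.5 and 7.23 CPM in Runx3 +/WRPW libraries 1, 2 and 3, and to 25.9 and 47.8 CPM in Runx3 +/+. Outside Runx3 +/WRPW library 2 nearly all of that was Tubb3, and the synaptic genes Snap25 and Syt1 were at 0 to 0.0924 CPM outside Runx3 +/WRPW library 2, where they had 5.09 and 2.61 CPM. The 10 markers of macrophages and dendritic cells summed to 5.26, 18.5 and 6.77 CPM in Runx3 +/WRPW and 7.26 and 6.39 CPM in Runx3 +/+, with Lyz2 at no more than 0.277 CPM in any library. The 8 B cell markers summed to 4.39, 13.6 and 3.39 CPM in Runx3 +/WRPW, against 9.75 and 9.99 CPM in Runx3 +/+. Each of these 3 sums was highest among the Runx3 +/WRPW libraries in library 2, and their part in the results was not tested. The 8 double-positive thymocyte markers summed to 16.8, 27.6 and 17 CPM in Runx3 +/WRPW, against 35.9 and 36.9 CPM in Runx3 +/+. The 8 NK and innate lymphoid markers, with Nkg7 the highest, summed to 271, 382 and 245 CPM in Runx3 +/WRPW, against 236 and 263 CPM in Runx3 +/+. Endothelial markers, nearly all Pecam1, summed to 100, 85.8 and 76.8 CPM in Runx3 +/WRPW, against 182 and 142 CPM in Runx3 +/+. Fibroblast markers were at 1.78, 16.4 and 1.83 CPM in Runx3 +/WRPW and at 3.1 and 2.12 CPM in Runx3 +/+, so library 2 stood apart there too. Plasma cell markers, mostly Xbp1, summed to 39.6, 43.1 and 40.6 CPM in Runx3 +/WRPW, against 35.4 and 34.6 CPM in Runx3 +/+. Xbp1 alone had 38.4, 38.2 and 38.5 CPM against 34.9 and 34.1 CPM in Runx3 +/+, and edgeR did not call it. The lists for glia, thymic epithelium and platelets overlapped between the genotypes, and those for granulocytes and erythroid cells summed to no more than 1.4 CPM in any library.

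Of the single marker genes, edgeR called 7. The T-box factor gene Eomes was higher, at 91, 152 and 73.5 CPM in Runx3 +/WRPW against 9.8 and 12.1 CPM in Runx3 +/+ (adjusted p = 0.00402). Jchain, the joining chain of secreted antibodies, was also higher, at 0.96, 1.53 and 1.92 CPM against 0.0924 and 0.0392 CPM in Runx3 +/+ (edgeR adjusted p = 0.0154). The other 5 were lower: Dntt, Cd79b, Pecam1, Tubb3 and Cd3d. Without Runx3 +/+ library 1 the calls other than Tubb3 were lost, and without library 2 all 7 were. Cd3d was lost without any 1 library, and Dntt also without Runx3 +/WRPW library 3. Their part in the levels of the 48 genes was not tested. In bulk RNA, more cells with a transcript and more transcript per cell cannot be told apart.

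In the 48 genes the mean level in Runx3 +/WRPW ran from 2.16 to 23.5 CPM with a median of 4.72, and in Runx3 +/+ from 0 to 0.989 CPM with a median of 0.64. The ratio of the genotype means was 8.35 at the median. It was at least 4 for 41 genes and at least 10 for 19, counting Elavl4, which had no count in Runx3 +/+. Without Runx3 +/WRPW library 2 the median ratio was 6.86, with 37 genes at 4 or more and 17 at 10 or more. Per kilobase of exon, the 48 were low: their Runx3 +/WRPW means ran from 0.205 to 10.9 CPM per kilobase with a median of 1.06, while the 12673 tested genes with an exon length had a median of 7.02 CPM per kilobase and a lower quartile of 1.75. Highest on this scale were Tigit (10.9), Adh1 (6.78) and Ppm1j (4.99), and lowest were the long transcripts of Tln2 (0.205) and Myo18b (0.215). Levels did not overlap between the genotypes for any of the 48, which the rule fixes; 27.7% of all tested genes were higher in Runx3 +/WRPW without overlap. In edgeR's quasi-likelihood fit of all 13666 genes that passed its count filter, 38 of the 48 were called higher at an adjusted p under 0.05, where 6.24% of all tested genes were. All 48 passed the filter through their Runx3 +/WRPW level, so the count is no support. It was 12 and 9 without Runx3 +/+ libraries 1 and 2, and 26, 36 and 27 without Runx3 +/WRPW libraries 1, 2 and 3. Those not called were Ust, Fam161a, Lrrc75a, Prss33, Nrep, Peli3, Camk2n1, Lrrc66, Myo18b and Efnb2.

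**Figure D2:**
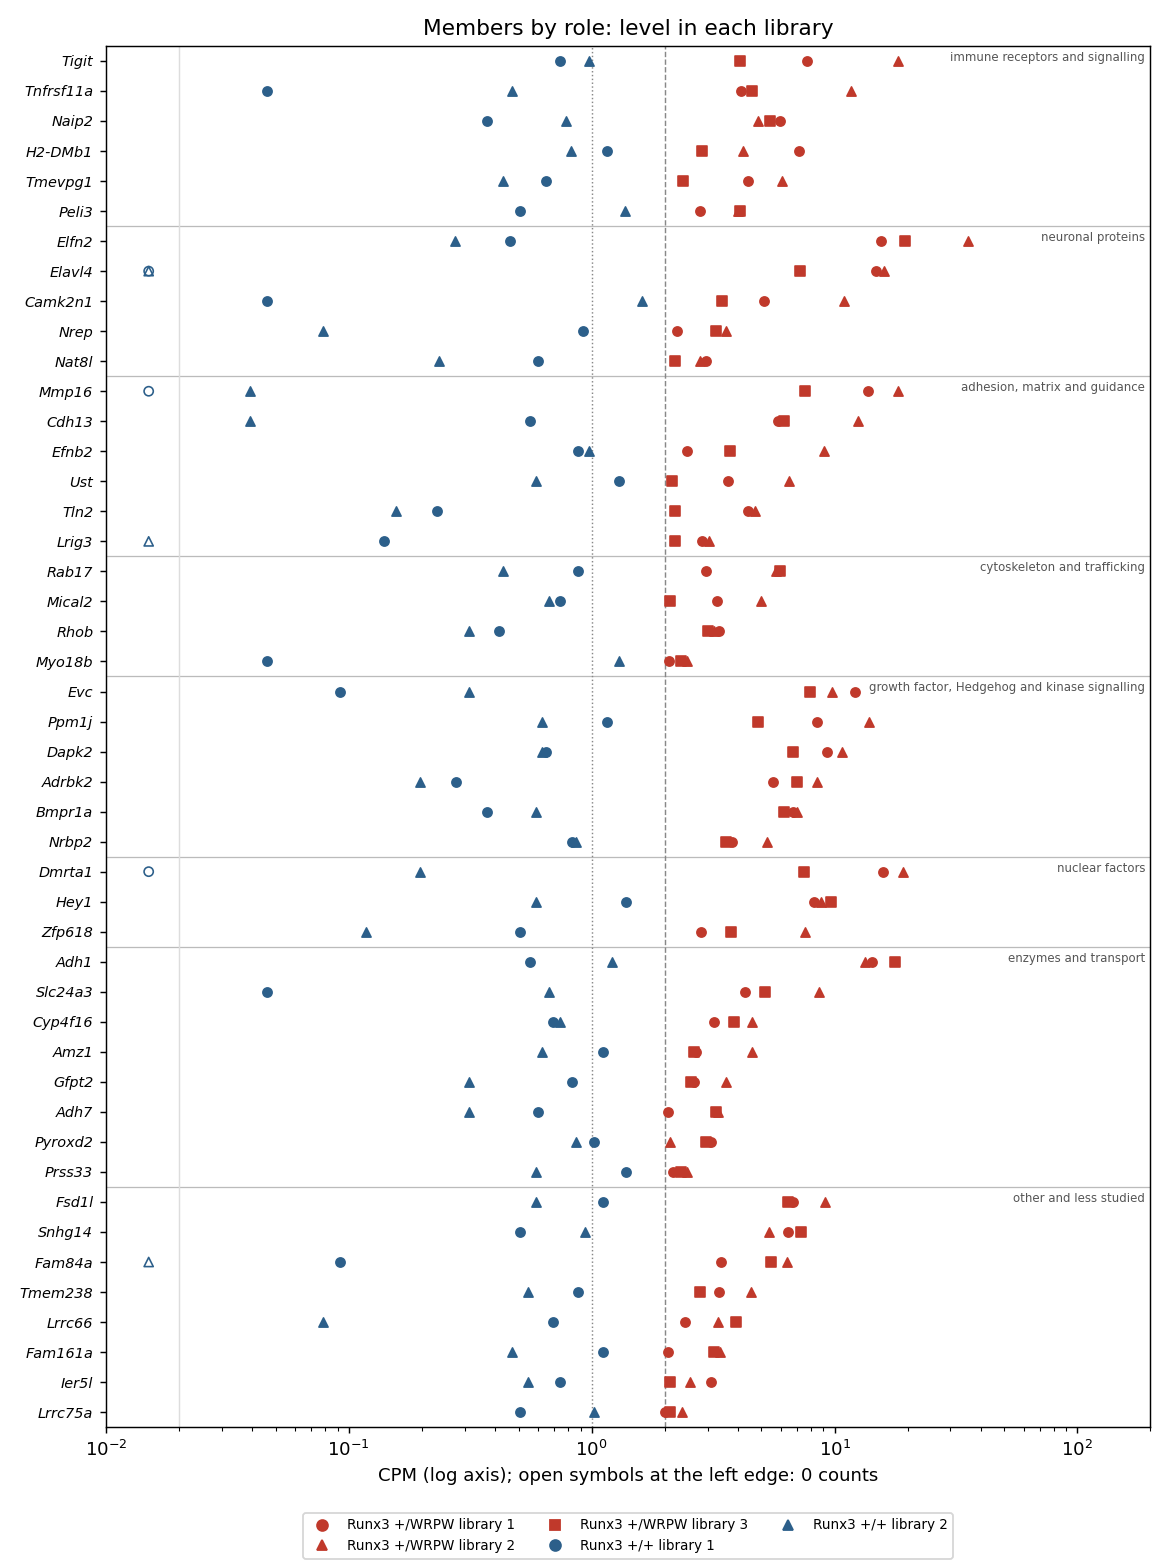
CPM on a log axis for 46 of the 48 genes in each library, grouped by role; red symbols are Runx3 +/WRPW, blue symbols Runx3 +/+, shapes give the library number, open symbols stand for 0 counts, and the vertical lines mark 1 and 2 CPM. By the rule all red symbols lie at 2 CPM or higher, while 14 of the genes drawn have a blue symbol at 1 CPM or higher.

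To show what lies at the start of such genes, 300-base promoter windows (250 bases before and 50 after a transcription start) are printed for 5 of them, from RefSeq on GRCm38.p6. Tigit, H2-DMb1 and Naip2 are the immune genes with a Runt-domain core, TGTGGT or TGCGGT on either strand, which is in capitals (ACCACA is TGTGGT read on the other strand). Dmrta1, with few counts in Runx3 +/+, and Evc, which lies next to Evc2, have no such letters in the window.
Tigit, chr16:43664135-43664434, minus strand: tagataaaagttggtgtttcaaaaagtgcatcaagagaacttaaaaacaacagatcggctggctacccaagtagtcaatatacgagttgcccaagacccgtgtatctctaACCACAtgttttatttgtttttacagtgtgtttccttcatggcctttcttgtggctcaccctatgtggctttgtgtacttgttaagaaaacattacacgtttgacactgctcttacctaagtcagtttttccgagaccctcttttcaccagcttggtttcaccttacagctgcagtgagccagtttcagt
H2-DMb1, chr17:34152941-34153240, plus strand: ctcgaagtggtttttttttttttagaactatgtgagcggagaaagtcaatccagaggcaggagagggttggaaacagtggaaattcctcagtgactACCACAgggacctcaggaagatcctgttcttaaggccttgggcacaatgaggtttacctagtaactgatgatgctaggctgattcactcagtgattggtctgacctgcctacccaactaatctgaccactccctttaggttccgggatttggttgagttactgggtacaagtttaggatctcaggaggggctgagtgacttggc
Naip2, chr13:100202073-100202372, minus strand: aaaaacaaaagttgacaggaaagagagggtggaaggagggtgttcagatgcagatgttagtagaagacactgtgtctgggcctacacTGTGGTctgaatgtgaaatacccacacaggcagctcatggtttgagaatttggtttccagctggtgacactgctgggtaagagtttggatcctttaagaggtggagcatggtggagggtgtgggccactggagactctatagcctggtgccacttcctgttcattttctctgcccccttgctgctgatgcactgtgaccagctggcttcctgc
Dmrta1, chr4:89687948-89688247, plus strand: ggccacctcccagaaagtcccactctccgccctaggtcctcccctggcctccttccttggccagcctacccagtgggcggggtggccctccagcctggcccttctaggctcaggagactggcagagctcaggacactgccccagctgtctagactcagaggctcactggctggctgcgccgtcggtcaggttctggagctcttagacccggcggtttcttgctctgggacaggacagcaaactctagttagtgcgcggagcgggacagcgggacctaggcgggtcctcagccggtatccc
Evc, chr5:37336832-37337131, minus strand: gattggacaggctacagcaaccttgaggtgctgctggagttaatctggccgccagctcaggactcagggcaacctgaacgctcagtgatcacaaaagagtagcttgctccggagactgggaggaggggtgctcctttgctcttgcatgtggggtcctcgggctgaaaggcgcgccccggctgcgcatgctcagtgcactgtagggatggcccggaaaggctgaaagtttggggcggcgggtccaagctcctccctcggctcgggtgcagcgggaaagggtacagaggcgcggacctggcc

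The core lies 140 bases before the start in Tigit, 154 in H2-DMb1 and 163 in Naip2. Promoter windows were matched for 35 of the 48 genes, 42 windows in all. A core was present in 8 windows (19%), of Amz1, Fam161a, H2-DMb1, Mical2, Naip2, Rhob, Tigit and Zfp618. Among 12024 windows of tested protein-coding genes the share was 21.2%, and it was 22.4% among all 32851 windows. TATAAA on either strand was in 2 of the 42 windows (4.76%), against 6.66% of windows of tested coding genes and 13.6% of all windows. The E-box CANNTG was in 31 (73.8%), against 63.8% of windows of tested coding genes and 72.3% of all windows. These letters mark matches and not binding sites. The 42 windows had a median of 15 CpG, against 20 in windows of tested coding genes and 7 in all windows.

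Immune receptor and signalling genes made up 7 of the 48, with a median ratio of means of 9.38. Tigit (chromosome 16, 43626137 to 43665125), an inhibitory receptor of T and NK cells that competes for the ligands of CD226, had 7.72, 18.3 and 4.07 CPM in Runx3 +/WRPW libraries 1, 2 and 3, against 0.74 and 0.979 CPM in Runx3 +/+. Its ratio of means was 11.7, or 6.86 without library 2, and its Runx3 +/WRPW libraries spread 4.49-fold, the widest of the 48. Its RefSeq span overlaps that of Zbtb20, a zinc finger gene at 209 to 244 CPM in Runx3 +/WRPW and 134 and 159 CPM in Runx3 +/+, with no shared exon bases in GENCODE M21. Tnfrsf11a, which encodes RANK, the receptor of the TNF-family ligand RANKL, had 4.11, 11.7 and 4.58 CPM in Runx3 +/WRPW, against 0.0462 and 0.47 CPM in Runx3 +/+. Library 2 was again high, while libraries 1 and 3 lay close together, and the ratio of means was 26.3 with library 2 and 16.8 without it.

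H2-DMb1 encodes a beta chain of the H2-DM complex, which loads peptides onto MHC class II. It had 7.15, 4.2 and 2.84 CPM in Runx3 +/WRPW, against 1.16 and 0.823 CPM in Runx3 +/+. With a mean of 0.989 CPM in Runx3 +/+ it lay just inside the limit. Its near-identical neighbour H2-DMb2 was called higher, at 7.91, 6.94 and 4.12 CPM in Runx3 +/WRPW against 1.76 and 0.588 CPM in Runx3 +/+ (log2 difference 2.42 ± 0.53 (SE), edgeR adjusted p = 0.0359). Reads shared between such copies may be split or dropped in counting, so the share of each is uncertain. The alpha chain gene H2-DMa, named after its values were seen, had 126, 144 and 99.4 CPM in Runx3 +/WRPW, against 47.4 and 24.7 CPM in Runx3 +/+ (log2 difference 1.75 ± 0.29, edgeR adjusted p = 0.0155). The H2-DMb2 call was lost when any of the 5 libraries was left out, and that of H2-DMa without Runx3 +/+ library 2.

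Naip2 encodes a sensor of bacterial secretion-system proteins that works with the NLRC4 inflammasome. It had 5.99, 4.84 and 5.4 CPM in Runx3 +/WRPW, against 0.37 and 0.784 CPM in Runx3 +/+. These 3 libraries lay close together, with a coefficient of variation of 10.6%. The paralogs Naip5 and Naip6 were not called by edgeR, while DESeq2 called 1 of them higher: Naip5 had 1.92, 2.1 and 0.275 CPM in Runx3 +/WRPW, against 0 and 0.118 CPM in Runx3 +/+, and Naip6 7.13, 7.45 and 1.51 CPM against 1.62 and 2.82 CPM. Reads of this gene cluster may be shared between its copies. Tmevpg1, a long non-coding RNA beside Ifng now named Ifngas1, had 4.39, 6.05 and 2.38 CPM in Runx3 +/WRPW, against 0.647 and 0.431 CPM in Runx3 +/+. Ifng itself, 56141 bases away, had 0.868, 1.72 and 0.32 CPM in Runx3 +/WRPW, against 0.462 and 1.25 CPM in Runx3 +/+, and was not called (log2 difference 0.11 ± 0.80, edgeR adjusted p = 0.949). Peli3, a Pellino E3 ubiquitin ligase of innate signalling, had 2.79, 4.01 and 4.07 CPM in Runx3 +/WRPW, against 0.508 and 1.37 CPM in Runx3 +/+, with a ratio of 3.86.

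Genes best known from neurons were 5 of the 48. Elavl4 (chromosome 4, 110203737 to 110351939), which encodes the neuronal RNA-binding protein HuD, had 14.8, 16 and 7.18 CPM in Runx3 +/WRPW and no count in Runx3 +/+. With 1054 counts in the 3 libraries it was at least 204-fold higher than Runx3 +/+, taking 3 counts for the whole group as the floor. Elfn2, a synaptic leucine-rich repeat protein that binds metabotropic glutamate receptors, had the highest mean CPM of the 48, with 15.5, 35.4 and 19.5 CPM in Runx3 +/WRPW against 0.462 and 0.274 CPM in Runx3 +/+. Library 2 was highest in both genes, but libraries 1 and 3 alone stood far above Runx3 +/+. Camk2n1, an inhibitor of calmodulin kinase II, had 5.12, 10.9 and 3.43 CPM in Runx3 +/WRPW, against 0.0462 and 1.61 CPM in Runx3 +/+. The Runx3 +/+ libraries disagreed here, and it was library 1 that brought their mean under 1 CPM. The ratio of means was 7.87, or 5.17 without Runx3 +/WRPW library 2. Nrep, a gene linked to nerve regeneration, and Nat8l, the enzyme that makes N-acetylaspartate in brain, were lower, at means of 3.02 and 2.66 CPM in Runx3 +/WRPW against 0.501 and 0.418 CPM in Runx3 +/+.

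Other genes of these families were mostly not called. Elavl1, the paralog found in most tissues, was not called, with 120, 110 and 123 CPM in Runx3 +/WRPW against 135 and 149 CPM in Runx3 +/+ (log2 difference -0.30 ± 0.08, edgeR adjusted p = 0.072). Within Runx3 +/WRPW, Elavl2 and Elavl3 had counts mainly in library 2, with 2.42 and 7 CPM there and at most 0.137 CPM in libraries 1 and 3. In Runx3 +/+ Elavl2 had no count, while Elavl3 had 0.231 and 0.784 CPM, above Runx3 +/WRPW libraries 1 and 3. Of 19 further neuronal RNA-binding genes 9 were tested in edgeR: 0 were higher (1 at an unadjusted p under 0.05, and 2 in DESeq2). In edgeR 1, Celf5, was lower by a log2 difference of -2.37 ± 0.41 (edgeR adjusted p = 0.0172). Lower at an unadjusted p under 0.05 were 2, and DESeq2 called 2 of the list lower. Of 34 further synaptic leucine-rich repeat and adhesion genes 7 were tested. Of these Nlgn2, a neuroligin, was higher at 25.4, 38.1 and 25.3 CPM in Runx3 +/WRPW against 11.6 and 7.36 CPM in Runx3 +/+ (log2 difference 1.61 ± 0.27, edgeR adjusted p = 0.0154), and 6 were not called. DESeq2, which tested more low genes, called 5 of this list higher and 1 lower. The edgeR calls of Celf5 and Nlgn2 needed both Runx3 +/+ libraries, and that of Celf5 also needed Runx3 +/WRPW library 3.

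Adhesion, matrix and guidance genes were 6 of the 48, with a median ratio of means of 23.5, and in all 6 library 2 was highest. Mmp16 (chromosome 4, 17853072 to 18117479), a metalloproteinase anchored in the plasma membrane, had 13.7, 18.3 and 7.55 CPM in Runx3 +/WRPW, against 0 and 0.0392 CPM in Runx3 +/+. That was 1051 counts against 1, a ratio of 609 (95% interval 109 to 24095, exact conditional binomial, counting error only). Cdh13, or T-cadherin, a cadherin held by a lipid anchor, had 5.83, 12.5 and 6.22 CPM in Runx3 +/WRPW, against 0.555 and 0.0392 CPM in Runx3 +/+. Efnb2, the ephrin-B2 ligand of EphB receptors, had 2.47, 9.04 and 3.71 CPM in Runx3 +/WRPW, against 0.878 and 0.979 CPM in Runx3 +/+. For Efnb2 the spread among the Runx3 +/WRPW libraries was 3.66-fold, and its ratio of means was 5.46, or 3.32 without library 2. Tln2, a talin that couples integrins to actin, had 4.41, 4.71 and 2.2 CPM against 0.231 and 0.157 CPM in Runx3 +/+. Lrig3, a transmembrane leucine-rich repeat protein, had 221 counts in Runx3 +/WRPW against 3 in Runx3 +/+, a ratio of 42.7 (95% interval 14.4 to 209). Ust, a sulfotransferase of chondroitin and dermatan sulfate, had 3.63, 6.49 and 2.15 CPM against 1.29 and 0.588 CPM in Runx3 +/+.

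Around Mmp16, 25 further metalloproteinase and inhibitor genes held 7 tested genes, of which Mmp11 was higher and 6 were not called. At an unadjusted p under 0.05, 2 of the list were higher and 2 lower, and DESeq2 called 2 higher and 2 lower. Among the 6, log2 differences were -1.84 ± 0.48 for Mmp14 (edgeR adjusted p = 0.0572) and -1.54 ± 0.43 for Mmp17 (adjusted p = 0.0691). That of Mmp15 was 0.52 ± 0.14 (adjusted p = 0.0633). Mmp11, a secreted metalloproteinase also named stromelysin-3, had 23.6, 20.4 and 22 CPM in Runx3 +/WRPW, against 11.6 and 10.1 CPM in Runx3 +/+ (log2 difference 0.99 ± 0.12, edgeR adjusted p = 0.00657). Of 22 further cadherin rows 5 were tested, and Cdh1, which encodes E-cadherin, was higher at 53.5, 51.8 and 30.3 CPM against 14.6 and 15.9 CPM in Runx3 +/+ (log2 difference 1.54 ± 0.26, edgeR adjusted p = 0.0156). Of the cadherin rows DESeq2 called 1 higher and 1 lower. The ephrin paralogs Efnb1 and Efnb3 were not called. Without Runx3 +/+ library 1 or 2 the calls of Mmp11 and Cdh1 were lost.

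Cytoskeleton and trafficking genes were 4 of the 48, all at low levels. Rhob, a small GTPase of endosomes, had 3.36, 3.18 and 3.02 CPM in Runx3 +/WRPW, against 0.416 and 0.313 CPM in Runx3 +/+. Its coefficient of variation of 5.33% was the smallest of the 48. Rab17, an epithelial trafficking GTPase, had 2.95, 5.73 and 5.95 CPM against 0.878 and 0.431 CPM in Runx3 +/+, and Mical2, an enzyme that oxidises actin, 3.29, 4.96 and 2.1 CPM against 0.74 and 0.666 CPM. Myo18b, an unconventional myosin of muscle, had 2.08, 2.48 and 2.33 CPM in Runx3 +/WRPW, against 0.0462 and 1.29 CPM in Runx3 +/+. Of its family, Myo18a was lower, at 28.3, 29.1 and 24.8 CPM in Runx3 +/WRPW against 132 and 171 CPM in Runx3 +/+ (log2 difference -2.50 ± 0.13, edgeR adjusted p = 0.000736), and this call held in each fit that left out 1 library. Of the 19 tested relatives Myo10 (-1.87 ± 0.36, adjusted p = 0.0238) and Myo19 (-0.92 ± 0.20, adjusted p = 0.0343) were also lower in edgeR, Myo9a was higher (log2 difference 0.35 ± 0.07, adjusted p = 0.0301), and 15 were not called. These 3 calls needed both Runx3 +/+ libraries and Runx3 +/WRPW library 1; Myo10 and Myo9a also needed library 3 of that genotype, and Myo19 library 2.

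Growth factor, Hedgehog and kinase signalling gave 6 of the 48. Evc (chromosome 5, 37288970 to 37336947) encodes a protein of the primary cilium that, with Evc2, carries the Hedgehog signal on from Smoothened. It had 12.2, 9.74 and 7.92 CPM in Runx3 +/WRPW, against 0.0924 and 0.313 CPM in Runx3 +/+. Its partner Evc2, whose RefSeq span begins 1531 bases away, missed the rule by a small margin, with 2.99, 3.56 and 1.97 CPM in Runx3 +/WRPW against 0 and 0.118 CPM in Runx3 +/+. Evc2 was called higher (log2 difference 5.37 ± 0.90, edgeR adjusted p = 0.016), a call lost without Runx3 +/+ library 1 or 2 or Runx3 +/WRPW library 1. Both genes were thus near silent in Runx3 +/+ and present in all 3 Runx3 +/WRPW libraries. Adrbk2, now named Grk3, a kinase that phosphorylates active G protein-coupled receptors, had 5.6, 8.46 and 7 CPM in Runx3 +/WRPW, against 0.277 and 0.196 CPM in Runx3 +/+. Of 22 further Hedgehog pathway genes 14 were tested: Evc2 was higher, the receptor gene Ptch1 lower (log2 difference -0.56 ± 0.13, edgeR adjusted p = 0.0427) and 12 were not called. At an unadjusted p under 0.05, 4 were higher and 3 lower, and DESeq2 called 1 higher and 2 lower. Smo, the gene of Smoothened, was among the 12. It had 3.18, 1.59 and 0.778 CPM in Runx3 +/WRPW against 14.4 and 3.49 CPM in Runx3 +/+ (log2 difference -2.25 ± 0.73, edgeR adjusted p = 0.0987). The Ptch1 call was lost when any of the 5 libraries was left out.

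Bmpr1a, a type I receptor for bone morphogenetic proteins, had 6.76, 7 and 6.22 CPM in Runx3 +/WRPW, against 0.37 and 0.588 CPM in Runx3 +/+. The 3 libraries were nearly level, with a coefficient of variation of 5.98%. Its type II partner Bmpr2 was higher, at 21.8, 18.3 and 23.2 CPM in Runx3 +/WRPW against 12.1 and 13.5 CPM in Runx3 +/+ (log2 difference 0.70 ± 0.15, edgeR adjusted p = 0.0309). That call was lost without either Runx3 +/+ library and without Runx3 +/WRPW library 1 or 3. Dapk2, a calmodulin-regulated death-associated kinase, had 9.32, 10.7 and 6.77 CPM in Runx3 +/WRPW against 0.647 and 0.627 CPM in Runx3 +/+. Ppm1j, a phosphatase of the PP2C family, had 8.43, 13.9 and 4.85 CPM against 1.16 and 0.627 CPM in Runx3 +/+. Of its 11 tested relatives 2 were higher and 1 lower. Ppm1n was higher, at 5.14, 6.05 and 5.63 CPM against 1.57 and 1.8 CPM in Runx3 +/+ (log2 difference 1.70 ± 0.23, edgeR adjusted p = 0.00856), a call lost without Runx3 +/+ library 1 or 2. Ppm1b was higher (log2 difference 0.41 ± 0.08, edgeR adjusted p = 0.0206) and Ppm1e lower (log2 difference -1.92 ± 0.41, edgeR adjusted p = 0.0336), both calls being lost without any 1 library other than Runx3 +/WRPW library 2. The pseudokinase gene Nrbp2 had 3.77, 5.28 and 3.57 CPM against 0.832 and 0.862 CPM in Runx3 +/+.

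Nuclear factors were 4 of the 48. Dmrta1 (chromosome 4, 89688198 to 89694766), a DM-domain factor related to those of sex determination, had 15.8, 19.2 and 7.46 CPM in Runx3 +/WRPW, against 0 and 0.196 CPM in Runx3 +/+. Its promoter window is printed with those of the immune genes. None of the 7 other DMRT rows passed the count filter. Hey1, a repressor induced by Notch, had 8.2, 8.78 and 9.7 CPM in Runx3 +/WRPW, against 1.39 and 0.588 CPM in Runx3 +/+. It was among the steadiest, with a coefficient of variation of 8.48%, and lay just inside the limit in Runx3 +/+. The paralog Hey2 was at 0 CPM in Runx3 +/WRPW libraries 1 and 3. Zfp618, a zinc finger gene, had 2.83, 7.57 and 3.75 CPM against 0.508 and 0.118 CPM in Runx3 +/+.

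Enzymes and transporters were 8 of the 48. Adh1 (chromosome 3, 138277585 to 138290698), a class I alcohol dehydrogenase that also oxidises retinol, had 14.2, 13.4 and 17.8 CPM in Runx3 +/WRPW, against 0.555 and 1.21 CPM in Runx3 +/+. Adh7, a class IV enzyme of retinol oxidation whose RefSeq span lies 45543 bases from that of Adh1, had 2.06, 3.31 and 3.25 CPM against 0.601 and 0.313 CPM in Runx3 +/+. In both genes library 2 was not set apart from the others. The cluster's ubiquitous class III gene Adh5 had 96.8, 101 and 100 CPM in Runx3 +/WRPW against 95.4 and 95 CPM in Runx3 +/+ (log2 difference 0.03 ± 0.05, edgeR adjusted p = 0.742), and Adh4, Adh6a and Adh6b were at 0.114 CPM or less in libraries 1 and 3. Slc24a3, an exchanger of sodium for calcium and potassium, had 4.27, 8.65 and 5.17 CPM in Runx3 +/WRPW against 0.0462 and 0.666 CPM in Runx3 +/+. The remaining 5, with means of 2.33 to 3.87 CPM in Runx3 +/WRPW, were Cyp4f16 of the cytochrome P450 family, Gfpt2 of hexosamine synthesis, Pyroxd2, the serine protease gene Prss33 and the metalloprotease gene Amz1. Prss33 had the smallest ratio of the 48, at 2.17, 2.48 and 2.33 CPM against 1.39 and 0.588 CPM in Runx3 +/+. Amz1 shares 456 exon bases with Gna12 on the opposite strand, a gene at 29.1 to 37.5 CPM in Runx3 +/WRPW and 17.5 and 19.3 CPM in Runx3 +/+, and the strand setting of the counting is not given in the sources used here.

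Of the 8 other genes, Fam84a, now named Lratd1, had 3.41, 6.36 and 5.49 CPM in Runx3 +/WRPW, against 0.0924 and 0 CPM in Runx3 +/+. That was 369 counts against 2, a ratio of 107 (95% interval 29.4 to 887). Fsd1l had 6.74, 9.16 and 6.45 CPM against 1.11 and 0.588 CPM in Runx3 +/+. Snhg14, a long host transcript of small nucleolar RNAs that runs antisense to Ube3a, had 6.44, 5.35 and 7.27 CPM in Runx3 +/WRPW against 0.508 and 0.94 CPM in Runx3 +/+. It shares 1803 of its 26093 exon bases with Ube3a, which had 134, 120 and 154 CPM in Runx3 +/WRPW and 114 and 114 CPM in Runx3 +/+ and was not called (log2 difference 0.23 ± 0.12, edgeR adjusted p = 0.256). Without the strand setting, reads of the 2 genes in those bases cannot be told apart. Tmem238, Lrrc66, Fam161a, a gene of the cilium, Ier5l and Lrrc75a had means of 2.16 to 3.55 CPM in Runx3 +/WRPW.

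The Runx3 +/WRPW libraries did not rank alike in all genes. Library 2 was highest in 34 of the 48 (70.8%), library 1 in 8 and library 3 in 6. Among 4380 other tested genes with a Runx3 +/WRPW mean of 2 to 25 CPM, library 2 was highest in 56.7%. The level in library 2 was 1.31 times the mean of libraries 1 and 3 at the median of the 48, against 1.09 times in those other genes. It reached 3.1 times in Tigit, 2.93 in Efnb2 and 2.7 in Tnfrsf11a, and was lowest in Pyroxd2 at 0.693. The highest and lowest of the 3 libraries differed by less than 2-fold in 29 genes and by at least 3-fold in 4, namely Tigit, Efnb2, Camk2n1 and Ust. The part that the raised counts of library 2 had in these levels was not tested. That the genes are at 2 CPM or more in libraries 1 and 3 is fixed by the rule. Between the Runx3 +/+ libraries, 11 genes differed more than 5-fold, on few counts.

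**Figure D3:**
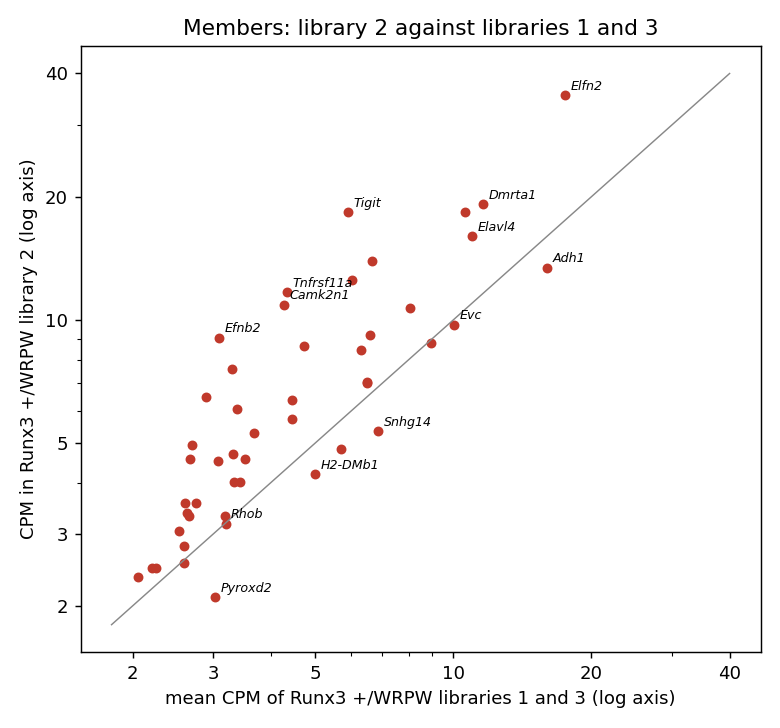
CPM in Runx3 +/WRPW library 2 against the mean CPM of libraries 1 and 3, on log axes, with a point for each of the 48 genes and a line of equal level. Most points lie above the line, with Tigit (18.3 CPM) and Efnb2 (9.04 CPM) far above it, while Adh1, Snhg14, H2-DMb1 and Pyroxd2 lie below.

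Near the limits the values ran on without a break. Just inside 1 CPM in Runx3 +/+ were H2-DMb1, Prss33 and Hey1 (means of 0.989, 0.987 and 0.987 CPM), and just outside Ncs1, Rin2 and Tbc1d2 (1.05, 1.06 and 1.08 CPM). Just inside 2 CPM in the lowest Runx3 +/WRPW library were Lrrc75a, Fam161a and Adh7 (2.01, 2.06 and 2.06 CPM), and just outside Gkap1, Evc2 and Dyrk4, each at 1.97 CPM.

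By position, 46 of the 48 are protein-coding and 2 are long non-coding RNAs. Chromosomes 4 and 5 held 6 each (12.5%), where they hold 6.15% and 6.58% of tested genes, and chromosome X held none. The 6 on chromosome 4, which also carries Runx3 (135120645 to 135177990), were Mmp16, Fsd1l, Zfp618, Dmrta1, Elavl4 and Camk2n1. Of these Camk2n1 is the nearest to Runx3, at 3.28 Mb, and the others are at least 24.8 Mb away. The coding genes among the 48 spanned a median of 40998 bases, against 23212 bases for tested coding genes and 11698 bases for near-silent coding rows. Their exon bases had a median of 4595, against 4270 for tested genes.

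Several of the genes had a neighbour with a like pattern. Besides Adh7 with Adh1, the neighbours Myo18b and Adrbk2, 14017 bases apart on chromosome 5, both belong to the 48. Of 92 flanking coding genes outside the 48, 61 were tested, and 11 (18%) were higher, 1 lower and 49 not called, where 6.24% of all tested genes were higher and 7.33% lower. Among the 11 were the paralogs Evc2 and H2-DMb2. Others overlap the span of a gene of the 48, such as Zbtb20 with Tigit, or share exon bases with it, as Gna12 with Amz1. Reads of H2-DMb2 and Gna12 may be shared with the gene they flank, so the 11 are not all separate from the 48. Fam19a3, which lies 1410 bases from Ppm1j, had 2.29, 3.75 and 1.88 CPM in Runx3 +/WRPW, against 0.231 and 0.118 CPM in Runx3 +/+ (log2 difference 3.86 ± 0.60, edgeR adjusted p = 0.0122). Rin2, beside Slc24a3, had 3.02, 4.71 and 3.48 CPM against 1.06 and 1.06 CPM in Runx3 +/+ (log2 difference 1.77 ± 0.34, edgeR adjusted p = 0.0236). Both were named after their values were seen. Without Runx3 +/+ library 1 or 2, no more than 1 flanking gene was called higher by edgeR. Without Runx3 +/WRPW libraries 1, 2 and 3 the number was 6, 9 and 6. Fam19a3 and Rin2 lost their calls without Runx3 +/+ library 1 or 2, and Rin2 also without Runx3 +/WRPW library 1 or 3.

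**Figure D4:**
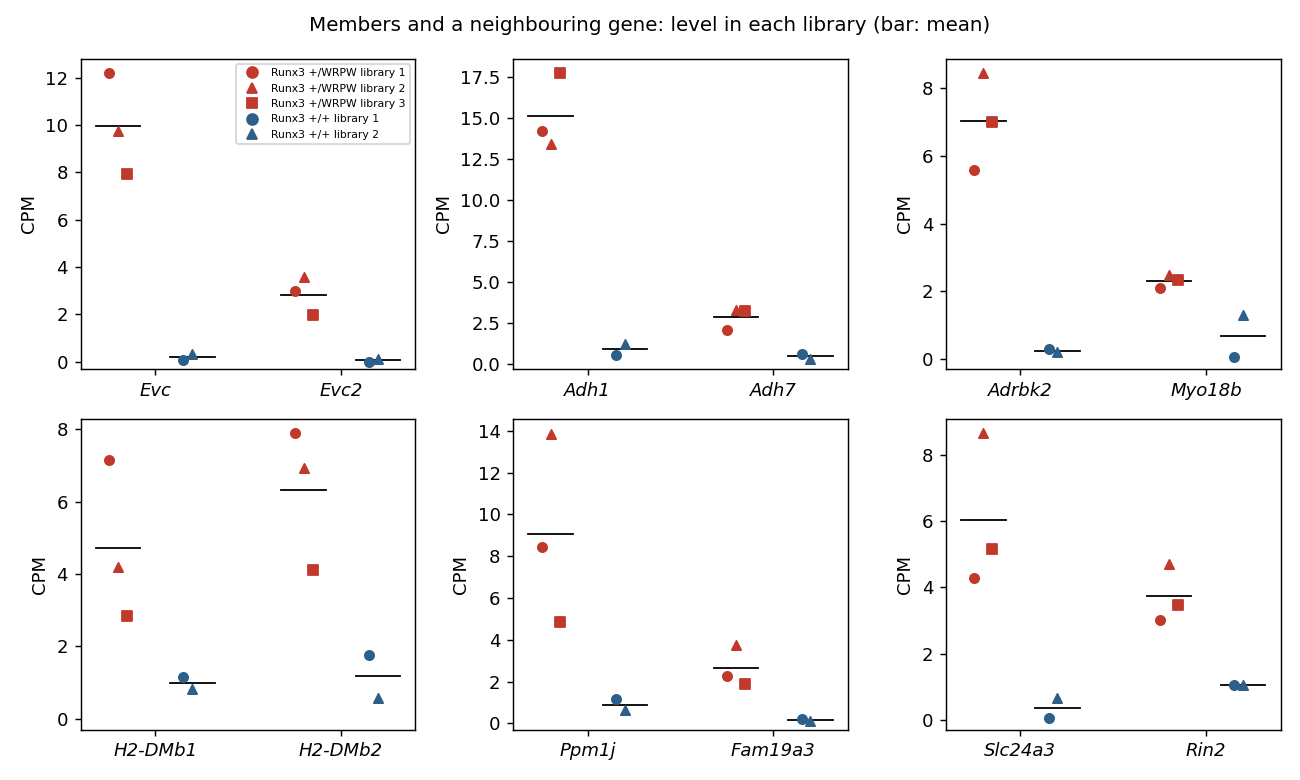
CPM in each library for 6 pairs of a gene of the 48 (left in each panel) and a neighbouring gene (right), with Runx3 +/WRPW in red left of Runx3 +/+ in blue, symbols as libraries and bars as means. In every panel the Runx3 +/WRPW symbols of both genes lie above all Runx3 +/+ symbols of that gene, as for Evc (7.92 to 12.2 CPM against 0.0924 and 0.313) and Evc2 (1.97 to 3.56 CPM against 0 and 0.118). For genes of the 48, Adh7 and Myo18b among them, the rule fixes this. The other neighbours drawn were picked from the 11 flanking genes called higher, while 49 tested flanking genes were not called.

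Among rows that share a symbol root with 1 of the 48, 119 of 225 were tested, with 13 higher (10.9%), 10 lower and 96 not called. Of all tested genes 6.24% were higher and 7.33% lower. In the family of Tnfrsf11a, 2 were higher, among them Tnfrsf22, and 4 lower, among them Tnfrsf9, Tnfrsf13c and Tnfrsf25. Of those not yet named, Peli1, Nat10 and Snhg15 were higher, and Amz2 and Prss16 lower. Without Runx3 +/+ library 2 each call but that of Myo18a was lost, and without library 1 each but those of Myo18a and Snhg15. The number called in either direction was 2 without either Runx3 +/+ library, and 6, 23 and 9 without Runx3 +/WRPW libraries 1, 2 and 3. Lists of other T cell programmes are set beside all tested genes, of which 13.6% were called in either direction. Of 9 tested helper, follicular and type 2 genes 0 were higher in edgeR (0 at an unadjusted p under 0.05, and 0 in DESeq2). In edgeR 1 was lower, Ascl2, at 0.32, 0.127 and 0.412 CPM in Runx3 +/WRPW against 3.74 and 3.96 CPM in Runx3 +/+ (log2 difference -3.71 ± 0.50, edgeR adjusted p = 0.00837). Lower at an unadjusted p under 0.05 were 5, and DESeq2 called 3 of the list lower. The median log2 difference of the tested genes was -0.47. Of 8 tested type 17 and gamma delta genes 0 were higher in edgeR (0 at an unadjusted p under 0.05, and 0 in DESeq2). In edgeR 0 were lower (2 at an unadjusted p under 0.05, and 1 in DESeq2). The Ascl2 call was lost without Runx3 +/+ library 1 or 2.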

How the data were processed

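Each library has 1 deposited file of whole-number counts by gene symbol, without normalization. The submitters' processing notes name the mm10 genome, the counter featureCounts (2.0.8), the aligner HISAT2 (2.2.1), cutadapt (4.0) and edgeR (3.36.0); which settings, annotation and strand were used is not given in the sources used here. Per the file headers, Runx3 +/+ library 2 is numbered 3 in its column name, and Runx3 +/WRPW library 2 has only the aligner's name there, so samples were assigned by their records. No pair of libraries agreed within sampling noise (smallest chi-square per gene 10.9).

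CPM is a count over its column total. Genotypes were compared over 13666 genes with edgeR 4.0.16 in R 4.3.3 (TMM, filterByExpr with a minimum count of 10, glmQLFit, glmQLFTest) with p adjusted by Benjamini-Hochberg and called under 0.05; the standard error is the absolute log2 difference over the square root of F. The edgeR script was tested on simulated data. The genes changed in it started above the mean Runx3 +/+ levels of the 48, so it does not cover such genes. Alternatives were DESeq2 1.42.0, RLE factors, no filter, a replicate block, each library left out, and other limits of the rule. Coordinates are RefSeq GRCm38.p6 (mm10), with 45 of the 48 genes matched by symbol and 3 by an older symbol; exons are GENCODE M21.

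The 48 genes, the lists and their roles were chosen with earlier results of these data known. Values in every library were planned for the 20 highest mean levels and for genes with 0 counts in Runx3 +/+, others as space allowed; related genes were named where called, up to 4 per list, and neighbouring or overlapping genes and H2-DMa after their values were seen. Symbol roots shared by over 60 rows were left out (7 of the 48 genes). Intervals (95%) and the floor of 3 counts cover counting error only. A few of the genes are not reported here by name.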

Additional observations from a re-analysis of the deposited data

How the results depend on the processing

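With TMM-scaled CPM the rule was met by 47 genes, all among the 48, and with under 1 CPM in each Runx3 +/+ library by 33. It was met by 19 with a Runx3 +/+ mean under 0.5 CPM, by 162 with 1 CPM or more in each Runx3 +/WRPW library, and by 13 with 5 CPM or more. Leaving out 1 library gave 51 to 72 genes, which held 43 of the 48 without Runx3 +/+ library 1 and 38 without library 2. When a Runx3 +/WRPW library was the one left out all 48 were held, which the rule fixes. No ratio of means changed direction among the 47 genes with counts in both genotypes (45 where a Runx3 +/+ library was left out). The rule fixes this when a library is left out, since a mean under 1 CPM keeps each Runx3 +/+ library under 2 CPM. Of those 45 genes, 29 and 25 moved by more than the SD of log2 CPM among the Runx3 +/WRPW libraries, without Runx3 +/+ library 1 and 2. The spread between the Runx3 +/+ libraries was not part of that measure. TMM scaling of the ratios and all settings for flanking and marker genes were added after the data were seen.

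All genes called numbered 1855, but 3427 in DESeq2, 1079 with no low-count filter, 754 with the replicate block and 277 to 1431 with 1 library left out. Of the 48 genes, 23 were called with no filter, 23 with the replicate block and 9 to 36 with 1 library left out. Of the related genes by symbol, 23 were called, against 37 in DESeq2, 10 with no filter, 9 with the replicate block and 2 to 23 with 1 library left out. Of the genes in the role lists, 6 were called, against 21 in DESeq2 and 0 to 10 with 1 library left out; the 0 came without Runx3 +/+ library 1 or 2, in edgeR. Flanking genes called were 12, against 22 in DESeq2, 7 with no filter, 7 with the replicate block and 0 to 10 with 1 library left out. RLE factors moved none of these counts by over 1.5 times. The cause of these shifts was not tested, except that without a filter 28583 genes are tested, and that without 1 Runx3 +/+ library the lone one is assumed to vary like Runx3 +/WRPW. Of 33 called genes outside the 48 (the related and listed genes, and neighbouring genes chosen after their values were seen), 29 lost their call without Runx3 +/+ library 1, 32 without library 2, 17 with no filter and 20 with the replicate block, and none changed sign. The labels give no sign that equal replicate numbers share an animal or day, and deviations of equal numbers correlated at -0.0492 and 0.00244, so the replicate block is no paired analysis. With 2 Runx3 +/+ libraries, levels under 1 CPM rest on few counts and limit every ratio.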
